A study of Homo sapiens with 26 samples.

Results

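The genes described here are 9 components and targets of the transforming growth factor beta (TGF-beta) and bone morphogenetic protein (BMP) pathways: the ligand genes BMP4 and INHBA, the signal transducer SMAD4, the inhibitory SMAD genes SMAD6 and SMAD7, and the targets ID1, ID2, ID3 and TGFBI. They were found by symbol among the Ensembl identifiers of 3 tables of counts per gene, and each table held 9 of the 9 among 62703 identifiers (Panc10.05 and BxPC3) or 62754 identifiers (AsPC-1). The study altered HNF4A, which encodes the nuclear receptor HNF4α and is transcribed from a P1 and a P2 promoter, in 3 human cell lines established from pancreatic ductal adenocarcinoma, and measured poly(A) RNA in 26 libraries. In Panc10.05, doxycycline induced the isoform P1-a2 at 25 ng/mL or P2-a8 at 12.5 ng/mL, and control cells, titled GFP-NC, had 25 ng/mL, with 2 libraries in each group. In BxPC3, the groups P1-a2, P2-a8 and the control titled EV-NC had 500 ng/mL doxycycline and 2 libraries each. In AsPC-1, CRISPR interference, in which a guide RNA brings an inactive Cas9 to a promoter to lower its transcription, was used without doxycycline in the labels. Its guides were sgP1E and sgP1J against P1, sgP2D and sgP2G against P2, and sgDual2 and sgDual3 against both, with 2 libraries per guide and 2 for the control guide sgNC. The labels do not say whether replicates came from separate cultures, so p-values measure only the spread between these libraries. They also do not say whether a line was a clone.

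TGF-beta, activins and BMPs are secreted dimers that bind pairs of receptor kinases at the cell surface, and the receptors phosphorylate receptor-regulated SMAD proteins. These join SMAD4, enter the nucleus and change transcription. SMAD6 and SMAD7 are induced by the pathway and block it, ID genes are induced by BMPs in many cells and encode helix-loop-helix proteins that hold back transcription factors, and TGFBI encodes a secreted matrix protein named for its induction by TGF-beta. SMAD4 is among the tumour suppressor genes most often lost in pancreatic ductal adenocarcinoma.

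The sequences of 3 promoters are shown because BMP4 and the pair SMAD6 and ID1 moved in opposite directions when both HNF4A promoters were repressed in AsPC-1. Each is the 250 bases before a RefSeq transcript start on GRCh38.p14, written 5′ to 3′ on the strand of the gene, and capitals mark a motif found by search. SMAD6 lies on chromosome 15 (chr15:66701986-66702235, plus strand), BMP4 on chromosome 14 (chr14:53955051-53955300, minus strand, the most upstream of its 3 RefSeq starts) and ID1 on chromosome 20 (chr20:31605039-31605288, plus strand).
SMAD6: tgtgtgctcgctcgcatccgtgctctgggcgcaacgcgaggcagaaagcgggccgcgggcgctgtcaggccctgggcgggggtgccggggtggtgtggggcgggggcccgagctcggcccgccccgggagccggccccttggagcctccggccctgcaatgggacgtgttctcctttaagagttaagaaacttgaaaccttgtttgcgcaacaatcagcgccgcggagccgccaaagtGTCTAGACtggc
BMP4: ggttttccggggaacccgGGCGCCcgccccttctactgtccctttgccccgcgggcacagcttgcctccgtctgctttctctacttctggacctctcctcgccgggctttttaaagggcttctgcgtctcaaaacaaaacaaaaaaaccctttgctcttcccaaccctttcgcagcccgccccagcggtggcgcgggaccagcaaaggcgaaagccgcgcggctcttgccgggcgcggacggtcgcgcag
ID1: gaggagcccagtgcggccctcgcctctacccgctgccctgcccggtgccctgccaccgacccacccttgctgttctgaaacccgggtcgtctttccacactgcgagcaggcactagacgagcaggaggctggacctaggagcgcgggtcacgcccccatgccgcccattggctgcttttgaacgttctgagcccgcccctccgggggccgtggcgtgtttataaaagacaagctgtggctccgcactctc
The motifs searched on both strands were the SMAD palindrome GTCTAGAC, the GC-rich box GGCGCC of BMP-responsive genes and the HNF4 site CAAAGTCCA, none of which overlaps another as a motif. GTCTAGAC begins 12 bases before the SMAD6 start, and 0.18% of 35116 promoters of this length hold it. GGCGCC begins 232 bases before the BMP4 start and is held by 16.38% of those promoters. The ID1 window held none of the 3 motifs, and CAAAGTCCA, held by 0.32% of promoters, was in no window of the 9 genes, which says only that these letters are not in these windows. The other windows gave GGCGCC 125 bases before the start of SMAD4 and 111 bases before that of TGFBI. A match is a description of the sequence and not a measured binding site.

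Each library held between 26079388 and 50662077 counts, with the Panc10.05 libraries at 34618745 or more. Levels are CPM, the usual depth-normalised counts, after trimmed mean of M-values scaling inside a line. HNF4A, the targeted gene, rose from 0.149 ± 0.129 CPM (SD, n = 2) in Panc10.05 NC to 11.8 ± 1.61 CPM with P1-a2 and to 37.6 CPM in both P2-a8 libraries, and it passed the threshold against NC in both groups of both induced lines. In AsPC-1, HNF4A was 206 and 220 CPM with sgNC, 109 to 146 CPM with sgP1, 76.7 to 93.9 CPM with sgP2 and 3.19 to 13.6 CPM with sgDual. Its fall passed the threshold with sgDual (adjusted p = 6.25e-06) but not with sgP1 (0.615) or sgP2 (0.0751). All 5 epithelial markers (EPCAM, KRT8, KRT18, KRT19 and CDH1) averaged at least 1 CPM in every group. Among 15 fibroblast, immune and endothelial markers, PTPRC was at most 0.137 CPM in any library and LUM was the only fibroblast marker whose group means reached 1 CPM in AsPC-1. Some others were higher. CD68 was 6.25 to 9.35 CPM in Panc10.05 and 3.15 to 6.06 CPM in AsPC-1, where CD14 was 1.43 to 3.47 CPM. In BxPC3, the endothelial markers CDH5 and VWF were 3.37 to 5.24 CPM and 2.46 to 4.12 CPM, while PECAM1 was at most 0.483 CPM. CD79A moved with the groups, at 14.6 and 20.7 CPM in BxPC3 P1-a2 against 0.0546 and 0.149 CPM in BxPC3 NC. In Panc10.05 it was 1.28 and 2.89 CPM with P1-a2, 0.817 and 0.961 CPM with P2-a8 and 0.0961 and 0.145 CPM in NC.

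SMAD4 was not detected in BxPC3. The gene (ENSG00000141646, chr18:51028394-51085045 in GENCODE v29 on GRCh38) had 0 counts in all 6 BxPC3 libraries, where 3 counts would be 0.08 to 0.1138 CPM. It was 23.5 to 33.2 CPM in Panc10.05 and 14.7 to 20.7 CPM in AsPC-1. The neighbouring protein-coding genes ME2, ELAC1 and MEX3C, chosen after the SMAD4 values were seen, also had 0 counts in all 6 BxPC3 libraries. Their medians were 40.0, 5.55 and 30.7 CPM of the library total in Panc10.05 and 21.1, 2.58 and 17.2 CPM in AsPC-1. The other protein-coding neighbours within 500 kb, MAPK4, MRO and AC091551.1, which shares exons with SMAD4 on the same strand, had at most 6 counts in any library of the 3 lines. The zero at SMAD4 was shared by the 3 neighbours that the other lines expressed.

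**Figure D1:**
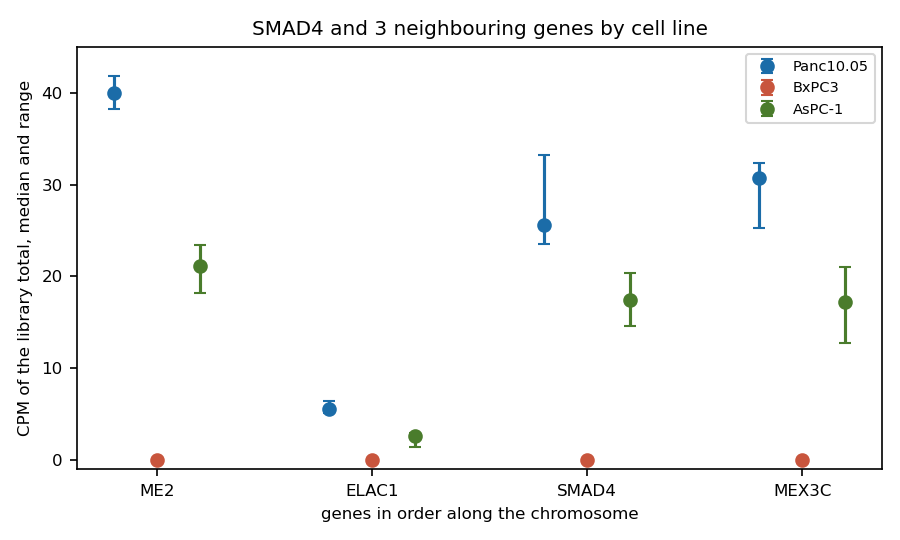
CPM of the library total (vertical axis) of SMAD4 and the neighbouring genes ME2, ELAC1 and MEX3C in order along the chromosome, with points at the median and bars from the lowest to the highest library of each cell line (6, 6 and 14 libraries). BxPC3 is at 0 for all 4 genes, and Panc10.05 medians lie above those of AsPC-1.

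In GENCODE v29 on GRCh38, the other genes were BMP4 (chr14:53949736-53958761), INHBA (chr7:41667168-41705834), SMAD6 (chr15:66702228-66782848), SMAD7 (chr18:48919853-48952052), ID1 (chr20:31605283-31606515), ID2 (chr2:8678845-8684453), ID3 (chr1:23557918-23559794) and TGFBI (chr5:136028895-136063818). The BMP4 mean was 0.176 CPM in Panc10.05 NC, 8.61 CPM in BxPC3 NC and 126 CPM in AsPC-1 sgNC, levels that come from separately scaled tables and were not tested. INHBA, which encodes the activin A subunit, had 31.2 CPM in BxPC3 NC, 1.06 CPM in Panc10.05 NC and between 0 and 2 counts in each of the 14 AsPC-1 libraries. ID3 was 92.6 CPM in Panc10.05 NC, 9.04 CPM in BxPC3 NC and 0.925 CPM in AsPC-1 sgNC. ID2 was 16.6, 0.189 and 8.28 CPM in the same groups, with only 5 and 7 counts in the BxPC3 controls. SMAD7 differed least, at 7.84 CPM in Panc10.05 NC, 11.7 in BxPC3 NC and 14 in AsPC-1 sgNC.

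Per kilobase of exon, ID1 led the 9 genes in the Panc10.05 and BxPC3 controls, at 149 and 189 CPM per kb, and TGFBI led in AsPC-1 sgNC at 87.4 CPM per kb, with ID1 next at 73 CPM per kb (their SDs, 8.26 and 1.8, do not span the gap between them). BMP4 followed at 40.9 CPM per kb, above SMAD6 at 16.3 CPM per kb. In Panc10.05 NC, BMP4 was the lowest of the 9 at 0.057 CPM per kb. Over all 10 groups, BMP4 levels ran from AsPC-1 sgDual through sgP1, sgNC and sgP2 with no overlap between neighbours, then to the 3 BxPC3 groups, which overlapped, and last to Panc10.05. ID1 ran from BxPC3 NC and BxPC3 P2-a8, which overlapped, through Panc10.05 NC and BxPC3 P1-a2 to Panc10.05 P2-a8, then to 4 groups (AsPC-1 sgP2, sgP1, sgNC and Panc10.05 P1-a2) in which each overlapped the next, and ended with AsPC-1 sgDual. SMAD6 ran from AsPC-1 through BxPC3 to Panc10.05, ID3 from Panc10.05 through BxPC3 to AsPC-1, and TGFBI had all BxPC3 and AsPC-1 groups above all Panc10.05 groups. ID2 ran from the induced Panc10.05 groups through AsPC-1 sgP2, which overlapped Panc10.05 NC, and the other AsPC-1 groups to BxPC3. INHBA had all BxPC3 groups above all Panc10.05 groups, with AsPC-1 at or under 2 counts. Scaling all 26 libraries together, an alternative chosen after seeing the data, changed the order only between AsPC-1 sgNC and sgP1 for SMAD4 and among ranks 6 to 9 for SMAD7, where most neighbours overlapped.

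**Figure D2:**
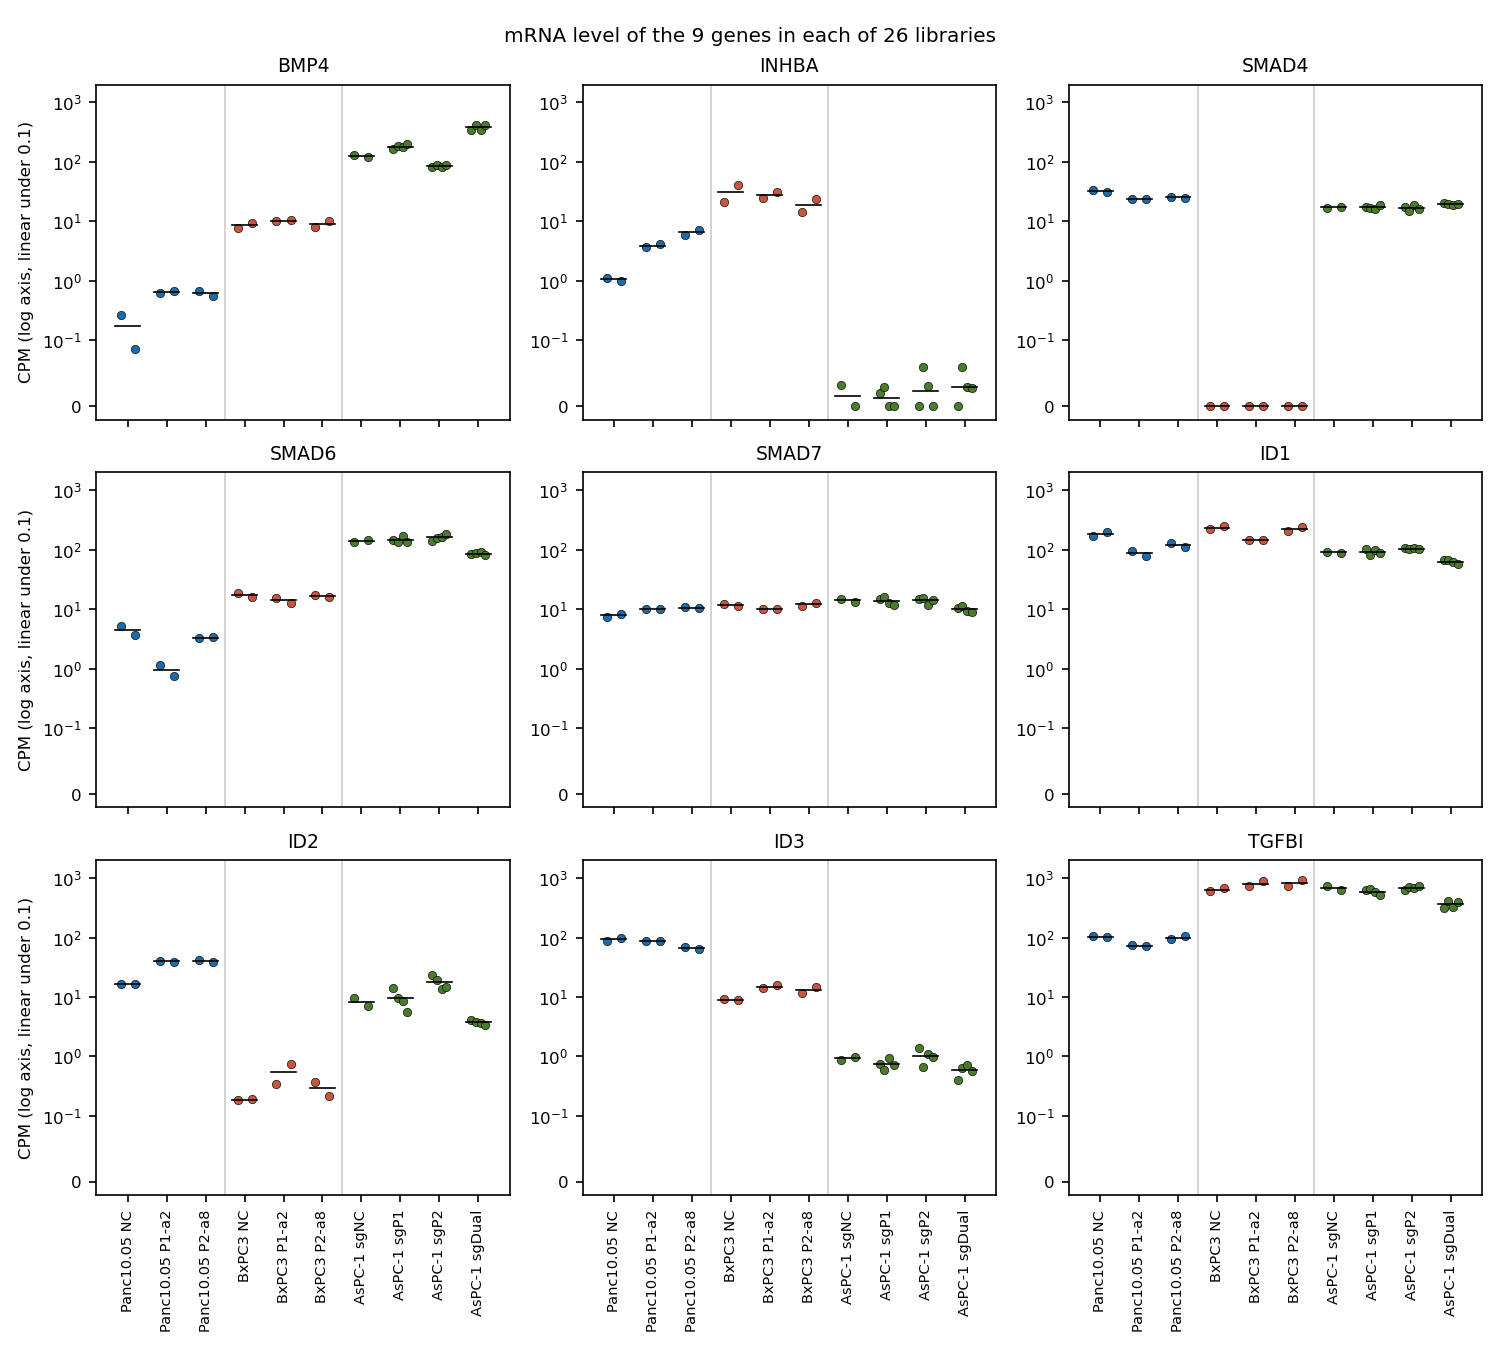
CPM (vertical axis, logarithmic above 0.1 and linear below) of the 9 genes in the 10 groups (horizontal axis), with a point for each of 26 libraries and a line at the group mean. SMAD4 is at 0 in the 6 BxPC3 libraries, INHBA is at or under 2 counts in AsPC-1, and BMP4 in AsPC-1 is highest in sgDual and lowest in sgP2.

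In Panc10.05, induction of P1-a2 changed 8 of the 9 genes, 4 higher and 4 lower, where 62% of all 17247 genes tested passed the same threshold (adjusted p under 0.05 by edgeR's quasi-likelihood test). P2-a8 changed 7 of 9, 4 higher and 3 lower, where 46.2% of all genes passed. The median log2 fold change of the 9 genes was -0.07 with P1-a2 and -0.05 with P2-a8, beside 0.02 and 0.00 over all genes. Most genes of the line that were tested with P1-a2 also passed, and the 9 did not share a direction: the ligand genes, ID2 and SMAD7 were higher and ID1 and SMAD4 were lower in both groups. The comparisons share the NC libraries. In bulk RNA, fewer cells of a type and less RNA per cell cannot be told apart. The summed level of the 5 epithelial markers moved with the groups too, from 4672 to 4690 CPM in NC to 6651 to 7698 CPM with P1-a2 and 8147 to 8494 CPM with P2-a8. KRT8 and KRT18 made up most of that sum. CDH1 went the other way with P1-a2, at 96.1 to 105 CPM against 145 to 161 CPM in NC, and was 211 to 229 CPM with P2-a8. The part of these epithelial markers in the results was not tested.

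Both ligand genes rose in Panc10.05. INHBA was 1.13 and 0.985 CPM in NC, 3.70 and 4.09 CPM with P1-a2 and 5.85 and 7.18 CPM with P2-a8. The 3 groups did not overlap, and P2-a8 was highest. INHBA rose by 1.87 on the log2 scale with P1-a2 (SE 0.20, adjusted p = 8.99e-11). With P2-a8 the rise was 2.61 (SE 0.19, adjusted p = 4.87e-15), and P1-a2 was lower than P2-a8 by 0.73 on the log2 scale (SE 0.15, adjusted p = 0.000106), a 1.66-fold difference. BMP4, a ligand of the BMP receptors, was barely detected in NC, with 11 and 3 counts, or 0.264 and 0.0869 CPM. It was 0.616 and 0.674 CPM with P1-a2 and 0.684 and 0.563 CPM with P2-a8, above both NC libraries. The rise was 1.81 on the log2 scale with P1-a2 (SE 0.48, adjusted p = 0.0012) and 1.77 with P2-a8 (SE 0.48, adjusted p = 0.00248). P1-a2 against P2-a8 gave 0.04 (adjusted p = 0.944). Both values rest on few counts in NC. Without NC replicate 2 they were 1.28 (adjusted p = 0.0358) with P1-a2 and 1.24 (adjusted p = 0.0607) with P2-a8, and without NC replicate 1 they were 2.84 and 2.82.

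The transducer SMAD4 fell with both isoforms in Panc10.05. It was 33.2 and 31.4 CPM in NC, 23.5 and 23.7 CPM with P1-a2 and 26.1 and 25.1 CPM with P2-a8. Every induced library was below both controls. The falls were 1.37-fold (log2 fold change -0.45, SE 0.08, adjusted p = 4.08e-06) and 1.26-fold (-0.34, SE 0.08, adjusted p = 0.000506).

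The inhibitory SMAD genes parted. SMAD6, which mainly restrains BMP signalling, was 5.21 and 3.62 CPM in NC and 1.16 and 0.739 CPM with P1-a2, a 4.75-fold fall (log2 fold change -2.25, SE 0.22, adjusted p = 1.43e-11). With P2-a8 it was 3.25 and 3.41 CPM, below both NC libraries. That difference missed the threshold (-0.42, SE 0.18, adjusted p = 0.0587). It passed without NC replicate 2 (-0.65, adjusted p = 0.00895) and with only those groups in the fit (adjusted p = 0.0469), and was -0.12 without NC replicate 1 (adjusted p = 0.727). P1-a2 was also lower than P2-a8 (-1.83, SE 0.23, adjusted p = 1.41e-08). SMAD7, which restrains both branches, was 7.44 and 8.23 CPM in NC, 10.2 CPM in both P1-a2 libraries, and 10.9 and 10.3 CPM with P2-a8. All induced libraries were above both controls, with log2 fold changes of 0.38 (SE 0.11, adjusted p = 0.00341) and 0.44 (SE 0.11, adjusted p = 0.0012). Without NC replicate 1 the first had an adjusted p of 0.0717.

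The ID genes, which share a role, moved differently from each other in Panc10.05. ID1 was 170 and 198 CPM in NC, 94.3 and 78.9 CPM with P1-a2 and 129 and 113 CPM with P2-a8, so the groups did not overlap and P1-a2 was lowest. ID1 changed by -1.09 on the log2 scale with P1-a2 (SE 0.09, adjusted p = 1.28e-07) and by -0.60 with P2-a8 (SE 0.09, adjusted p = 0.000102), and P1-a2 was below P2-a8 by 1.4-fold (-0.49, adjusted p = 0.000672). ID2 was 16.5 and 16.8 CPM in NC and rose to 40.8 and 38.9 CPM with P1-a2 and 41.6 and 38.8 CPM with P2-a8. The rise was 2.39-fold with P1-a2 (log2 fold change 1.26, SE 0.08, adjusted p = 1.48e-17). With P2-a8 it was 2.42-fold (1.27, SE 0.08, adjusted p = 4.88e-17), and the induced groups overlapped. ID2 shares exons with the opposite-strand gene ID2-AS1, which had 233 counts over the 6 libraries, while a library of ID2 alone held at least 581. ID3 was 88.3 and 97.0 CPM in NC and 88.3 and 88.0 CPM with P1-a2, which did not pass the threshold (-0.07, adjusted p = 0.356). With P2-a8 it fell to 70.0 and 64.0 CPM (-0.47, SE 0.07, adjusted p = 1.51e-07), below every other library of the line.

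TGFBI, the TGF-beta-induced matrix protein gene, fell with P1-a2. It was 105 and 101 CPM in NC, 73.5 and 72.8 CPM with P1-a2 and 95.7 and 104 CPM with P2-a8. The P1-a2 libraries were the lowest, and those of P2-a8 and NC overlapped. Its log2 fold change was -0.49 (SE 0.06, adjusted p = 6.93e-09) with P1-a2, -0.05 (adjusted p = 0.561) with P2-a8 and -0.45 (SE 0.06, adjusted p = 1.65e-07) for P1-a2 against P2-a8. In all, 5 of the 9 genes differed between P1-a2 and P2-a8, ID3 higher and TGFBI, INHBA, ID1 and SMAD6 lower with P1-a2, where 46.9% of all genes passed. The isoforms differed in doxycycline dose and in HNF4A level as well, and these cannot be told apart from the isoform.

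In BxPC3, which had no SMAD4 counts, 2 of the 8 genes tested changed with P1-a2 (ID3 higher and ID1 lower), where 32% of all 17635 genes passed. With P2-a8, 1 of 8 changed (ID3 higher), where 6.99% of all genes passed. P1-a2 against P2-a8 gave 1 of 8 (ID1 lower), where 22.5% of all genes passed. The median log2 fold change of the 8 genes was 0.03, 0.06 and 0.07 in these comparisons, beside -0.01, 0.01 and -0.01 over all genes. ID2 rests on 5 to 28 counts in each library. The summed epithelial markers were 5700 to 6125 CPM in NC, 8639 to 9084 CPM with P1-a2 and 7218 to 7262 CPM with P2-a8. KRT19 alone of these markers was lower with P1-a2, at 2450 to 2520 CPM against 2610 to 2730 CPM in NC. The summed level of the 6 fibroblast markers was 13.2 to 14.3 CPM in NC and 17.3 to 19.5 CPM in the induced libraries. LUM was 0.765 to 1.45 CPM in NC, 6.15 to 6.38 CPM with P1-a2 and 6.15 to 6.26 CPM with P2-a8, and DCN, at most 0.543 CPM, also rose. COL3A1 went the other way, at 0.892 to 0.956 CPM in NC, 0.251 to 0.433 CPM with P1-a2 and 0.49 to 0.801 CPM with P2-a8. COL1A1, the highest of the 6, was 11.3 to 11.8 CPM in NC, 10.5 to 12 CPM with P1-a2 and 11.8 to 11.9 CPM with P2-a8. The part of these markers in the results was not tested.

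ID1 was 220 and 247 CPM in BxPC3 NC, 145 and 144 CPM with P1-a2 and 204 and 243 CPM with P2-a8. Only the P1-a2 libraries stood apart, below all 4 others, at -0.69 (SE 0.08, adjusted p = 0.000141) against NC and -0.63 (SE 0.08, adjusted p = 0.000604) against P2-a8. P2-a8 against NC gave -0.06 (adjusted p = 0.752). ID3 was 9.18 and 8.90 CPM in NC, 14 and 15.9 CPM with P1-a2 and 11.7 and 14.6 CPM with P2-a8, so every induced library was above both controls. The rises were 1.66-fold (0.73, SE 0.13, adjusted p = 0.00134) and 1.45-fold (0.54, SE 0.13, adjusted p = 0.0314). The second was lost without either NC replicate (adjusted p = 0.125 and 0.203) and without P2-a8 replicate 2 (0.259).

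The other 6 genes tested did not pass the threshold in BxPC3. BMP4 ran from 7.70 to 10.5 CPM and SMAD7 from 9.88 to 12.9 CPM over the 6 libraries. SMAD6 was 18.7 and 15.7 CPM in NC and 15.1 and 12.9 CPM with P1-a2, with no overlap (-0.30, SE 0.12, adjusted p = 0.0836). TGFBI was 610 and 672 CPM in NC, 721 and 887 CPM with P1-a2 and 743 and 913 CPM with P2-a8, above both controls in every induced library, but the adjusted p was 0.115 and 0.188. The first log2 fold change was 0.33, and 0.48 without P1-a2 replicate 1, and it passed with only those groups in the fit (0.0264). With replicate number as a block in the fit, both passed (3.29e-06 and 3.05e-06 by edgeR), as did SMAD6 with P1-a2 (0.013). The labels do not say that these numbers pair libraries. INHBA varied within groups, at 21.2 and 41.2 CPM in NC, 24.3 and 30.8 CPM with P1-a2 and 14.2 and 23.3 CPM with P2-a8. Replicate 2 was the higher in each group. Against NC, INHBA gave -0.19 with P1-a2 (adjusted p = 0.803) and -0.75 with P2-a8 (adjusted p = 0.491). With replicate number as a block in the fit, P2-a8 passed (-0.73, adjusted p = 0.000873 by edgeR) and P1-a2 did not (0.331). The NC replicates were farther apart than the group means. ID2 was 0.186 and 0.191 CPM in NC, 0.345 and 0.757 CPM with P1-a2 and 0.372 and 0.214 CPM with P2-a8, with log2 fold changes of 1.55 (SE 0.59, adjusted p = 0.0682) and 0.63 (SE 0.65, adjusted p = 0.66). Without P1-a2 replicate 1 the adjusted p of the first was 0.0436.

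**Figure D3:**
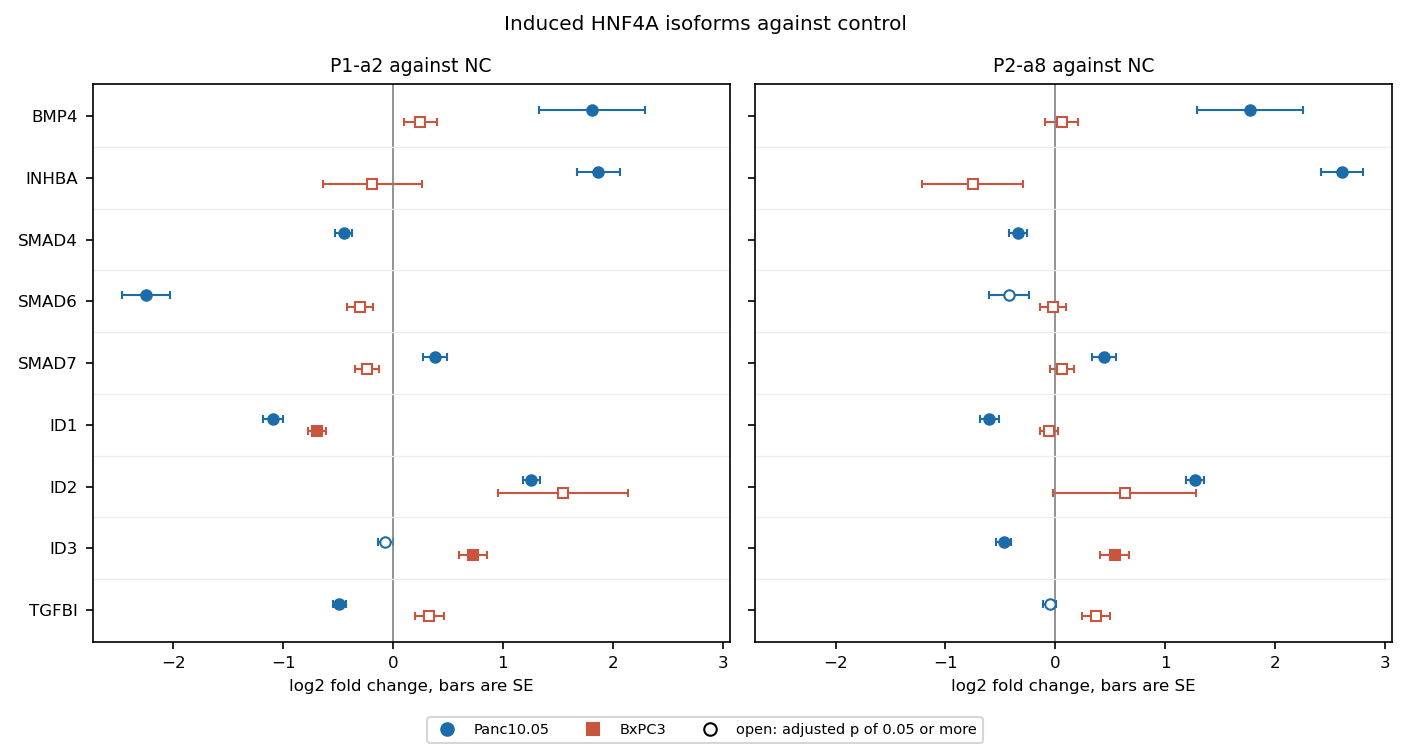
Log2 fold change against NC (horizontal axis, bars are SE) of the 9 genes with P1-a2 (left) and P2-a8 (right) in Panc10.05 (circles) and BxPC3 (squares), filled where the adjusted p was under 0.05. BxPC3 has no SMAD4 point because its libraries held no SMAD4 counts, and INHBA is 1.87 and 2.61 in Panc10.05 against -0.19 and -0.75 in BxPC3.

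Whether the response differed between the lines was tested as an interaction in a joint fit of the 12 libraries, in which a positive value means a higher log2 fold change in Panc10.05 than in BxPC3. For P1-a2 against NC, 5 of the 8 genes that both lines express differed, where 36.4% of all 19372 genes passed. The values were 1.56 (SE 0.46, adjusted p = 0.0102) for BMP4, 0.63 (SE 0.16, adjusted p = 0.00321) for SMAD7, -0.79 (SE 0.13, adjusted p = 4.5e-05) for ID3, -0.81 (SE 0.16, adjusted p = 0.00188) for TGFBI and -1.94 (SE 0.27, adjusted p = 4.38e-06) for SMAD6. ID1, which fell in both lines, gave -0.38 (adjusted p = 0.0998). INHBA gave 2.08 (adjusted p = 0.065, or 3.4e-08 with replicate number as a block in the fit). Each passed when a library was left out: ID1 without Panc10.05 P1-a2 replicate 1 (0.0185) or NC replicate 1 (0.0427), and INHBA without BxPC3 NC replicate 1 (0.00349) or 2 (0.0329). The BMP4 difference was lost without Panc10.05 NC replicate 2 (1.02, adjusted p = 0.121). For P2-a8 against NC, 4 of 8 differed, where 23.5% of all genes passed: BMP4 (1.70, adjusted p = 0.00899) and INHBA (3.36, SE 0.68, adjusted p = 0.0138) were higher, and ID1 (-0.54, adjusted p = 0.0383) and ID3 (-1.0, SE 0.13, adjusted p = 7.16e-06) were lower in Panc10.05. ID3 thus moved in opposite directions with P2-a8, past the threshold in each line and in the test of the difference. Its rise in BxPC3 no longer passed without NC replicate 1 (0.55), NC replicate 2 (0.50) or P2-a8 replicate 2 (0.35). Without Panc10.05 NC replicate 2, ID3 alone of these 4 still differed for P2-a8. INHBA was also lost without NC replicate 1 (0.0548), BMP4 without Panc10.05 P2-a8 replicate 1 (0.0614), and ID1 without Panc10.05 P2-a8 replicate 2 (0.092), BxPC3 NC replicate 1 (0.117) or BxPC3 P2-a8 replicate 2 (0.0831). For P1-a2 against P2-a8, SMAD6 differed (-1.54, SE 0.27, adjusted p = 0.000244), where 22.3% of all genes passed. In BxPC3, HNF4A was 0.771 ± 0.434 CPM in NC, 10.7 ± 1.32 CPM with P1-a2 and 13.4 ± 1.15 CPM with P2-a8 (SD, n = 2). In Panc10.05 the means were 0.149, 11.8 and 37.6 CPM. SMAD4 status, line, dose, control construct, table of counts and size of the HNF4A change differ together here and cannot be told apart.

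In AsPC-1, 8 of the 9 genes could be tested, since INHBA did not pass the filter. Repression with sgP1 changed 1 of 8 (BMP4, higher), where 0.265% of all 16992 genes passed. sgP2 changed 1 of 8 (BMP4, lower), where 3.42% passed. sgDual changed 6 of 8, BMP4 higher and SMAD6, SMAD7, ID1, ID2 and TGFBI lower, where 35.6% of all genes passed. Of all genes tested, 17.8% were called lower. The median log2 fold change of the 8 genes with sgDual was -0.59, beside 0.00 over all genes, and with sgP1 and sgP2 it was 0.03 and 0.08. Each target group pools 2 libraries from each of its 2 guides, and guides are not replicates of one another. With guides as separate groups, sgP1, sgP2 and sgDual gave 606, 1905 and 7290 genes against sgNC, beside 45, 581 and 6048 with the pooled groups. The 3 comparisons share the sgNC libraries. LUM moved with BMP4 in these libraries, at 278 to 299 CPM with sgDual, 177 to 199 with sgP1, 164 to 178 with sgNC and 130 to 166 with sgP2, and made up nearly all of the summed level of the 6 fibroblast markers (280 to 301 CPM with sgDual, 165 to 179 CPM with sgNC). COL3A1 was also higher with sgDual, at 0.545 to 1.07 CPM against 0.127 to 0.193 CPM with sgNC, 0.0584 to 0.351 CPM with sgP1 and 0.155 to 0.36 CPM with sgP2. The other fibroblast markers, COL1A1, COL1A2, PDGFRB and DCN, overlapped between sgDual and sgNC. The summed level of the 5 epithelial markers was 14299 to 14592 CPM with sgNC and 8297 to 18029 CPM with sgP1. It was 10178 to 11674 CPM with sgP2 and 11256 to 15962 CPM with sgDual. CDH1 did not follow that sum with sgP2, at 55.7 to 67.3 CPM against 35.6 to 64 CPM with sgNC. The part of the fibroblast and epithelial markers in the results was not tested.

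**Figure D4:**
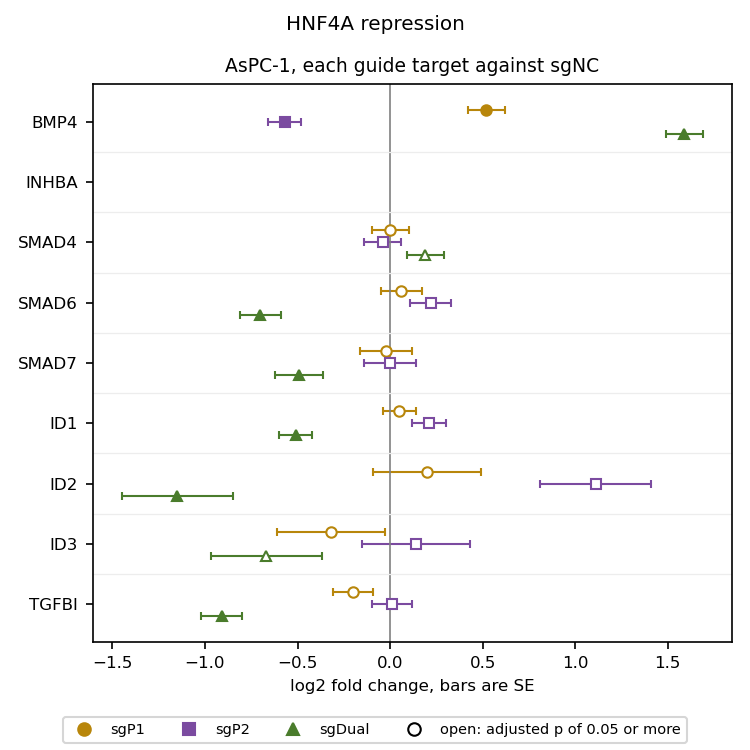
Log2 fold change against sgNC (horizontal axis, bars are SE) of the 9 genes in AsPC-1 with sgP1 (circles), sgP2 (squares) and sgDual (triangles), filled where the adjusted p was under 0.05. INHBA was not tested, BMP4 is filled in all 3 comparisons, and the other filled points belong to sgDual and lie below 0.

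BMP4 separated the guide targets. It was 131 and 121 CPM with sgNC, 163, 180, 185 and 196 CPM with sgP1, 80.5, 83.0, 87.8 and 87.9 CPM with sgP2, and 344, 349, 409 and 421 CPM with sgDual. The 4 groups did not overlap: sgP2 lay below the control, sgP1 above it, and sgDual above all others. Against sgNC, BMP4 changed by 0.52 on the log2 scale with sgP1 (SE 0.10, adjusted p = 0.037), by -0.57 with sgP2 (SE 0.09, adjusted p = 0.00501) and by 1.59 with sgDual (SE 0.10, adjusted p = 9.74e-08). The targets also differed when compared with each other, with sgP2 against sgP1 at -1.09 (SE 0.08, adjusted p = 3.54e-06), sgDual against sgP1 at 1.07 (SE 0.08, adjusted p = 2.55e-07) and sgDual against sgP2 at 2.17 (SE 0.08, adjusted p = 2.26e-10). The sgP1 call was lost without either sgNC replicate (adjusted p = 0.248 and 0.432), without sgP1E or sgP1J replicate 2 (0.0748 and 0.0564), and with only the groups compared in the fit (0.267). The sgP2 call was lost without sgNC replicate 1 (0.0955).

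The inhibitory SMAD genes fell with sgDual. SMAD6 was 133 and 147 CPM with sgNC and 81.2, 85.2, 87.2 and 90.2 CPM with sgDual, and it was 134 to 169 CPM with sgP1 and 141 to 187 CPM with sgP2. The sgDual libraries were below every other AsPC-1 library (-0.70 against sgNC, SE 0.11, adjusted p = 0.000159). SMAD7 was 14.7 and 13.3 CPM with sgNC, 11.6 to 16.1 CPM with sgP1, 11.9 to 15.3 CPM with sgP2 and 9.07, 9.27, 10.4 and 11.1 CPM with sgDual, again the lowest. Its log2 fold change against sgNC was -0.49 (SE 0.13, adjusted p = 0.0102), and 0.125 without sgNC replicate 1. SMAD4 stayed between 14.7 and 20.7 CPM in all 14 libraries. It passed only for sgDual against sgP2 (0.23, SE 0.08, adjusted p = 0.0317), where the libraries overlapped. That call was lost without sgP2G replicate 1 or 2, sgDual2 replicate 1 or either sgDual3 replicate (adjusted p up to 0.0918), with total counts as the scaling (0.0639) and with no filter on low counts (0.0527).

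Among the targets in AsPC-1, ID1 was 91.5 and 88.4 CPM with sgNC, 80.2 to 104 CPM with sgP1, 102 to 106 CPM with sgP2 and 58.1, 61.2, 66.3 and 67.1 CPM with sgDual. The sgDual libraries were the lowest, and those of sgP2 lay above the controls (0.21, adjusted p = 0.249). The fall with sgDual was 1.42-fold against sgNC (-0.51, SE 0.09, adjusted p = 0.000627). ID2 was 9.50 and 7.06 CPM with sgNC, 5.68, 8.55, 9.52 and 14 CPM with sgP1, 13.7, 14.5, 19.6 and 23.7 CPM with sgP2 and 3.38, 3.64, 3.76 and 4.13 CPM with sgDual. It was lowest with sgDual and highest with sgP2, apart from an sgP1E library that reached the range of sgP2. With sgDual it changed by -1.15 on the log2 scale (SE 0.30, adjusted p = 0.00825, and 0.123 without sgNC replicate 1). With sgP2 it was 1.11 (SE 0.30, adjusted p = 0.0632) against sgNC. DESeq2 (adjusted p = 0.00363), grouping by guide (0.0404) and a fit with only the groups compared (0.0426) put that difference past the threshold. sgP2 against sgP1 passed (0.91, SE 0.24, adjusted p = 0.0469), but not with only those groups in the fit (0.163) or without sgP1E replicate 2, either sgP1J replicate, sgP2D replicate 1 or sgP2G replicate 1 (0.0867 to 0.142), and sgDual against sgP2 gave the largest difference of ID2 in this line (-2.26, SE 0.25, adjusted p = 1e-05).

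ID3 was low in AsPC-1, with 14 to 38 counts in each library. It was 0.855 and 0.995 CPM with sgNC, 0.584 to 0.933 CPM with sgP1, 0.659 to 1.39 CPM with sgP2 and 0.402 to 0.722 CPM with sgDual. The groups overlapped apart from sgDual and sgNC (-0.67, SE 0.30, adjusted p = 0.0957). sgDual against sgP2 passed (-0.81, SE 0.25, adjusted p = 0.014), but not without sgP2D replicate 1 (0.052). TGFBI was 728 and 637 CPM with sgNC, 528 to 644 CPM with sgP1, 640 to 739 CPM with sgP2 and 318, 325, 399 and 408 CPM with sgDual. Its fall with sgDual was 1.88-fold (-0.91, SE 0.11, adjusted p = 2.64e-05), and all 4 sgDual libraries were below the other 10.

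**Figure D5:**
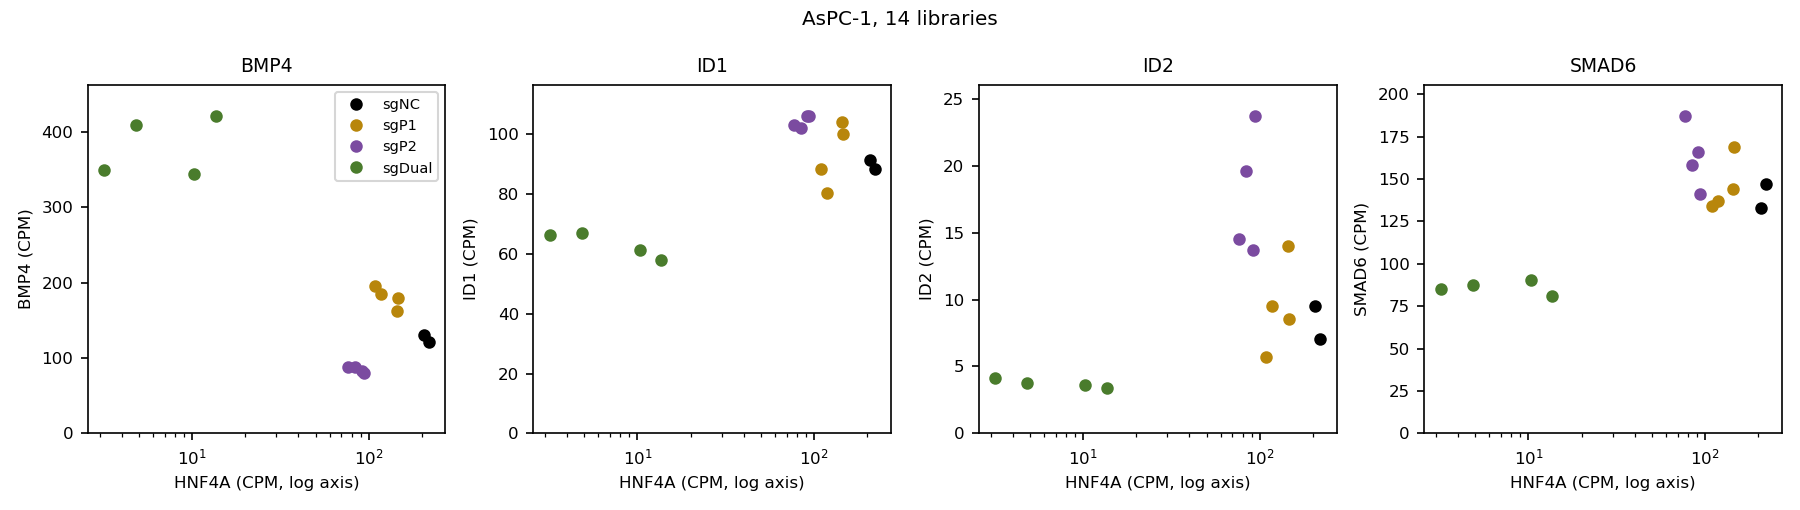
CPM of BMP4, ID1, ID2 and SMAD6 (vertical axes, from 0) against CPM of HNF4A (horizontal axis, logarithmic) in the 14 AsPC-1 libraries, coloured by guide target. The sgDual libraries, at 3.19 to 13.6 CPM of HNF4A, are highest for BMP4 and lowest for the other 3 genes, and sgP1 and sgP2 lie on opposite sides of sgNC for BMP4.

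Compared with sgP1, sgDual changed 6 of 8 genes (BMP4 higher, SMAD7, ID2, TGFBI, ID1 and SMAD6 lower), where 38.3% of all genes passed. Compared with sgP2, it changed 8 of 8 (BMP4 and SMAD4 higher, the other 6 lower), where 46.4% passed. sgP2 against sgP1 changed 2 of 8 (ID2 higher, BMP4 lower), where 4.3% passed. Of 24 tests between guides of a target, over 3 guide pairs and 8 genes, only ID1 in sgP1E against sgP1J passed (0.28, SE 0.08, adjusted p = 0.0335, at 104 and 100 CPM against 80.2 and 88.4 CPM), where 14.5% of all genes differed between those guides. Between sgP2D and sgP2G 0 of 8 passed, where 1.69% of all genes did, and between sgDual2 and sgDual3 0 of 8 passed, where 0.883% did. With 2 libraries a guide, these tests do not show that guides act alike. BMP4 was 349 and 344 CPM with sgDual2 and 409 and 421 CPM with sgDual3, with no overlap (-0.26, SE 0.07, unadjusted p = 0.00287 and adjusted p = 0.171 by edgeR). TGFBI was 318 and 325 CPM with sgDual2 and 408 and 399 CPM with sgDual3, again with no overlap (-0.33, SE 0.10, unadjusted p = 0.0044 and adjusted p = 0.214 by edgeR).

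Beyond the 9 genes, 55 other genes of the pathway were followed: 9 ligands, 11 receptors, 5 receptor-regulated SMADs, 15 inhibitors and 15 targets. In Panc10.05, 17 rose and 21 fell with P1-a2, and 17 rose and 16 fell with P2-a8, of 46 tested (82.6% and 71.7% passed, beside 62% and 46.2% of all genes). The inhibitor PMEPA1, itself a TGF-beta target, had the largest rise in both, from 4.57 ± 0.527 CPM (SD, n = 2) to 22.2 ± 0.373 CPM with P1-a2 and 28.9 ± 2.72 CPM with P2-a8 (log2 fold changes 2.27 and 2.65, adjusted p = 1.28e-21 and 2e-23). The pseudoreceptor gene BAMBI rose with P1-a2 (1.60) and P2-a8 (1.44), SNAI2, a transcription factor of epithelial-mesenchymal transition, rose with P1-a2 from 27.1 to 81.8 CPM (1.60) and with P2-a8 (0.49), and TGFB2 rose with P1-a2 (0.91) and P2-a8 (1.47). With P1-a2 and P2-a8 in that order, the log2 fold changes of genes that fell with both were -1.53 and -0.88 for the ligand gene GDF11, -1.93 and -0.68 for TGFB3, -1.64 and -0.81 for the coreceptor gene TGFBR3, -1.17 and -0.90 for CCN2, and -0.41 and -0.86 for FSTL3. Between the isoforms, 10 of the 46 were higher and 18 lower with P1-a2 (60.9% passed, beside 46.9% of all genes). Among them were SNAI2 (1.11), ACVR2A (0.63) and SNAI1 (0.47) higher and FN1 (-1.41), TGFB3 (-1.25) and BMP6 (-0.91) lower.

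In BxPC3, 47 of the 55 were tested, and 7 rose and 14 fell with P1-a2, while 0 rose and 2 fell with P2-a8 (COL4A1, -1.15, and SMAD3, -0.26). These are 44.7% and 4.26% of those tested, beside 32% and 6.99% of all genes. With P1-a2, SNAI1 (1.12), NOG (1.09), a secreted BMP antagonist, and BAMBI (1.02) rose most, and BMP7 (-0.98), COL4A1 (-0.94) and ACVR2B (-0.75) fell most. BMP2 was 48.7 ± 9 CPM with P1-a2 and 28.8 ± 2.66 CPM with P2-a8 (0.76, adjusted p = 0.00308), and JUNB was lower with P1-a2 (-0.73).

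In AsPC-1, 42 of the 55 were tested. With sgP1 0 passed in either direction, where 0.265% of all genes did. With sgP2 2 rose and 1 fell, or 7.14% beside 3.42% of all genes. With sgDual 23 rose and 2 fell, or 59.5% beside 35.6% of all genes. The median log2 fold change of the 42 with sgDual was 0.35, against 0.00 over all genes, while that of the 8 tested above was -0.59. CDKN2B, a cyclin-dependent kinase inhibitor gene induced by TGF-beta, rose most with sgDual (2.10, SE 0.21, adjusted p = 8.99e-06). It went from 27.2 ± 7.09 CPM (SD, n = 2) with sgNC to 117 ± 16 CPM with sgDual (SD over 4 libraries, 2 from each of 2 guides). The other SDs of sgP2 and sgDual given below also span 2 guides, which are not replicates of one another. TGFB2 rose with sgDual (16.8 to 41.6 CPM, 1.30, adjusted p = 0.000178) and with sgP2 (33.4 ± 7.24 CPM, 0.99, adjusted p = 0.013). NOG rose with sgDual (1.02, adjusted p = 0.000888). The genes that fell were inhibitors, the ubiquitin ligase gene SMURF2 (-0.71, adjusted p = 0.000197) and BAMBI (-0.59, adjusted p = 0.00122). By role, 5 of 7 ligands, 7 of 10 receptors and 3 of 4 receptor-regulated SMADs tested rose with sgDual, and none of them fell. Of 11 targets tested, 4 rose and 0 fell (36.4% passed), unlike ID1, ID2 and TGFBI, which fell. Of 10 inhibitors tested, 4 rose and 2 fell. Over all 16992 genes, 3018 were called higher. BMP7 fell with sgP2 as BMP4 did, from 50 ± 6.61 CPM to 33 ± 2.93 CPM (-0.60, adjusted p = 0.00404), and it was 75.7 ± 6.25 CPM with sgDual, above sgP2 by 1.19 on the log2 scale (adjusted p = 4.48e-08).

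Likeness of pattern was measured as Pearson's r of log2 CPM, centred in each line, over the 26 libraries among 9311 genes with a mean of at least 5 CPM in every line. The libraries share lines and groups, so r is a description. ID1, SMAD7 and TGFBI met that level. The genes most like ID1 were RHNO1 (r = 0.94) and SMC4 (r = 0.93), those most like SMAD7 were ETS2 (0.88) and HNRNPU (0.87), and those most like TGFBI were ZNF462 (0.92) and ITPK1 (0.92).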

How the data were processed

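Poly(A) RNA of 26 libraries was read as 3 tables of raw counts per gene, 1 per cell line, deposited by the authors. Per the submitters' processing notes, the tools were cutadapt 1.16, STAR 2.7.9a, featureCounts 1.6.3 and DESeq2 1.36.0 on GRCh38; the strand setting and annotation release are not given in the sources used here. Each line was fitted with edgeR 4.0.16 (R 4.3.3): filterByExpr, trimmed mean of M-values scaling, robust quasi-likelihood test and Benjamini-Hochberg adjustment over all tested genes, with a threshold of 0.05. All groups of a line shared a fit, the guides of a target formed a group, and lines were compared by an interaction in a joint fit. The tests were checked on simulated data. Alternatives were DESeq2 1.42.0, other scalings, no filter, a replicate block, groups by guide, only the groups compared, a fold limit and leaving out each library. Named pathway genes were at most 3 in each direction, taken by size of change among those that passed with a mean of at least 1 CPM, and genes alike in pattern were the 2 with the highest r. The members and lists were chosen with earlier results of these data known. Promoter sequences came from RefSeq (GRCh38.p14), where 9 of 9 genes matched. Replicates differed beyond counting noise (chi-square per degree of freedom at least 5.08).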

Additional observations from a re-analysis of the deposited data

Results flagged for a closer look

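The log2 fold change of a member differed between Panc10.05 and BxPC3, by the interaction test, in 10 gene and comparison pairs. These were 5 of 8 genes for P1-a2 against NC, 4 of 8 for P2-a8 against NC and 1 of 8 between the isoforms. Of all genes, 36.4%, 23.5% and 22.3% passed in these comparisons. SMAD4 status, line, dose, control construct, table of counts and size of the HNF4A change differ together and cannot be told apart. Both BMP4 entries, and INHBA and ID1 for P2-a8, were lost without some single libraries. For P1-a2 against NC, the log2 fold change in Panc10.05 minus that in BxPC3 was -1.94 for SMAD6, -0.81 for TGFBI, -0.79 for ID3, 0.63 for SMAD7 and 1.56 for BMP4. For P2-a8 against NC it was -1.0 for ID3, -0.54 for ID1, 1.70 for BMP4 and 3.36 for INHBA. For P1-a2 against P2-a8 it was -1.54 for SMAD6. In the groups of 4 AsPC-1 libraries, Dixon's criterion flagged no library in 24 tests. Each of these groups pools 2 libraries from each of 2 guides, which are not replicates of one another. A difference between guides widens the spread, and with 4 libraries the criterion flags 1 only when the rest lie close together. These tests therefore cannot show whether a library stood apart.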

How the results depend on the processing

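Among the log2 fold changes of members under alternatives other than leaving out a library, 701 kept direction and side of the threshold, 22 newly passed, 5 no longer passed and 7 changed sign. The cause of the changes below was not tested. With a log2 limit of 1, members called were 5, 3 and 1 in Panc10.05 (P1-a2 against NC, P2-a8 against NC, P1-a2 against P2-a8; genes called 3385, 1663 and 1455) and 0, 0 and 0 in BxPC3 (1242, 364 and 526). In AsPC-1 they were 0, 0 and 2 against sgNC for sgP1, sgP2 and sgDual (23, 185 and 1539), 1 for sgP2 against sgP1 (161), 2 for sgDual against sgP1 (1143) and 2 for sgDual against sgP2 (1745).

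The labels do not say that replicate numbers pair libraries. Between groups, the differences of replicate 1 from replicate 2 correlated at -0.01 to 0.01 in Panc10.05, 0.07 to 0.13 in BxPC3 and 0.08 to 0.34 in AsPC-1. All were above 0 in BxPC3 and AsPC-1, and whether libraries of the same number share a source was not tested. With the replicate block, members called in BxPC3 were 4, 3 and 4, with 7333, 2886 and 5992 of 17635 genes called. These are P1-a2 against NC, P2-a8 against NC and P1-a2 against P2-a8. The block gave 127 genes for sgP1 against sgNC, 2 members and 972 genes for sgP2 against sgNC, and 1204 genes for sgP2 against sgP1. It gave 3 members and 5322 genes for the line difference in P1-a2 against P2-a8. Newly past the threshold with the block, by edgeR's adjusted p, were TGFBI (3.29e-06) and SMAD6 (0.013) in BxPC3 P1-a2 against NC, TGFBI (3.05e-06) and INHBA (0.000873) in BxPC3 P2-a8 against NC, SMAD6 (0.0244), SMAD7 (0.0406) and INHBA (0.00201) in BxPC3 between the isoforms, and ID2 (0.00586) in sgP2 against sgNC. The line difference newly passed for INHBA with P1-a2 (3.4e-08), TGFBI with P2-a8 (5.5e-05), and both between the isoforms (2.05e-06 and 0.000126). Without a filter the counts were 1982 genes (BxPC3 P2-a8 against NC), 81 genes (sgP1 against sgNC), and 1 member and 665 genes (sgP2 against sgP1). The line difference in P1-a2 against P2-a8 gave 2 members and 4276 genes without a filter, and 2 members and 4335 genes with total counts. For sgP1 against sgNC, DESeq2 called 241 genes, grouping by guide 606, and only the groups compared 0 members and 7 genes. For sgP2 against sgNC each called 2 members, with 1099, 1905 and 1103 genes. For sgP2 against sgP1 they called 1233, 2086 and 189 genes, the last with 1 member. Total counts moved the share of calls that were higher from 37.8% to 47.9% for sgP1 against sgNC and from 48.5% to 59.1% for sgP2 against sgNC.

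Sign changes, all of values near 0, were SMAD4 0.03 (total counts) and 0.00 (no filter) and SMAD7 0.01 (total counts) in sgP1 against sgNC, SMAD7 -0.02 (no filter) and -0.00 (by guide) and TGFBI -0.01 (no filter) in sgP2 against sgNC, and SMAD7 -0.00 (no filter) in sgP2 against sgP1.

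Leaving out a library gave 7 to 8, 7 and 5 members in Panc10.05 (genes 9640 to 10022, 6460 to 7172 and 6435 to 6660) and 2 to 4, 0 to 1 and 1 in BxPC3 (3899 to 4725, 495 to 927 and 2538 to 3013). In AsPC-1 it gave 0 to 1, 0 to 1 and 4 to 6 against sgNC (1 to 144, 57 to 466 and 2775 to 5555), 1 to 2 for sgP2 against sgP1 (324 to 1208), 6 to 7 for sgDual against sgP1 (5385 to 6649) and 7 to 8 for sgDual against sgP2 (6866 to 7376). The line differences gave 4 to 6, 1 to 5 and 1 to 3. Log2 fold changes that changed sign missed the threshold before and after. Over the left-out libraries, in BxPC3 P2-a8 against NC the range was BMP4 -0.15 to 0.22, ID1 -0.21 to 0.04, SMAD6 -0.16 to 0.09 and SMAD7 -0.04 to 0.12, and in Panc10.05 P1-a2 against P2-a8 the range was BMP4 -0.10 to 0.18 and ID2 -0.08 to 0.03. In the line difference for P1-a2 against P2-a8 the range was BMP4 -0.35 to 0.02, and in AsPC-1 sgP1 against sgNC the range was ID1 -0.01 to 0.12, ID2 -0.07 to 0.42, SMAD4 -0.05 to 0.03, SMAD6 -0.02 to 0.14 and SMAD7 -0.10 to 0.05. In the line difference for P1-a2 against NC the range was ID2 -0.72 to 0.41, and in AsPC-1 sgP2 against sgNC the range was ID3 -0.03 to 0.30, SMAD4 -0.11 to 0.01, SMAD7 -0.07 to 0.07 and TGFBI -0.09 to 0.10. In BxPC3 P1-a2 against NC the range was INHBA -0.59 to 0.37, and in AsPC-1 sgP2 against sgP1 the range was SMAD4 -0.10 to 0.01 and SMAD7 -0.05 to 0.10. In BxPC3 P1-a2 against P2-a8 the range was TGFBI -0.19 to 0.13, and in Panc10.05 P2-a8 against NC the range was TGFBI -0.10 to 0.01.

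With 2 libraries in most groups, and a lone library assumed to vary like the others when its partner is left out, small changes cannot be resolved. BMP4 in Panc10.05, ID2 in BxPC3 and ID3 in AsPC-1 rest on few counts.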
